A study of Mus musculus with 311 samples.

Results

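Ifi202b, an interferon-inducible gene of mouse chromosome 1, was followed across the livers of 311 F2 mice. The gene was chosen by its own log ratios on these arrays, which fall into separate groups, so its levels and groups are given below as a description, without a test. Its members are all probes that the platform annotation assigns to Ifi202b (Entrez gene 26388), which came to 1 of 23388 probes, and it is 1 of 11387 genes measured on at least 95% of the arrays. Agreement between probes of the gene could therefore not be measured. RefSeq lists the name of the near-identical copy Ifi202a under the same gene, so transcripts of such copies were not told apart.

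The F2 animals descended from C57BL/6J and C3H/HeJ parents, which all lacked ApoE, which raises blood lipids and favours atherosclerosis. Females and males were included, and all ate a high-fat Western diet between 8 and 24 weeks of age. Total liver RNA of each animal, in Cy3, was hybridised against a common pool to which each sample gave an equal amount of RNA, in Cy5, on 1 array per animal. No sex, genotype or phenotype of an animal was used, so the 311 arrays formed 1 group, told apart by F2 numbers from 2 to 359. Values are log10 ratios of the animal over the pool, of which 0.745% were missing and 1990 stood at the limits of the scale, -2 and 2. The SD of an array over its probes ran from 0.0658 to 0.206. A ratio to a pool carries no absolute level, so it does not show whether a transcript was abundant in liver, and liver markers could not be checked as levels. In whole liver, fewer cells of a type and less RNA per cell cannot be told apart.

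Ifi202b belongs to the HIN-200 (p200) family, a cluster of genes on distal chromosome 1 whose proteins bind DNA or one another through the HIN domain. The family includes the DNA sensors Aim2 and Ifi204, and its genes are known to respond to type I and type II interferon and to be active in macrophages and lymphocytes. The p202 protein lacks the pyrin domain that most relatives carry, and it can hold back the Aim2 inflammasome. C57BL/6 mice are known to express little Ifi202b compared with several other inbred strains, and the gene has been studied in lupus and in obesity for that reason.

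The windows around the annotated transcription start of Ifi202b, of its nearest measured relatives on each side, Ifi203 and Ifi205, and of the interferon-induced Ifit3 are shown because the rest of the account sets Ifi202b beside these genes. They run 5′ to 3′ on the gene's strand from 250 bases before the start to 50 after it, are taken from RefSeq on GRCm38.p6, and give the C57BL/6J sequence. The C3H/HeJ sequence was not analysed here. Capitals mark matches to GAAA, any 2 bases and GAAA again, the core that interferon-activated factors bind (ISRE), or to TTC, any 3 bases and GAA, the core that STAT dimers bind (GAS), on either strand. The windows are chr1:173982795-173983094 for Ifi202b, chr1:173942443-173942742 for Ifi203 and chr1:174031706-174032005 for Ifi205, all on the minus strand, and chr19:34583279-34583578 on the plus strand for Ifit3.
Ifi202b: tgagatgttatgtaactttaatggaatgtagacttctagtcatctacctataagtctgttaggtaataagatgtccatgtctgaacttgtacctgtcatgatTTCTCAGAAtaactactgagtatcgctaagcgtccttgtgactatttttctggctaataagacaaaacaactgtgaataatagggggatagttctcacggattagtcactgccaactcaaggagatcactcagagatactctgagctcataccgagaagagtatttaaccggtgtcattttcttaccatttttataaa
Ifi203: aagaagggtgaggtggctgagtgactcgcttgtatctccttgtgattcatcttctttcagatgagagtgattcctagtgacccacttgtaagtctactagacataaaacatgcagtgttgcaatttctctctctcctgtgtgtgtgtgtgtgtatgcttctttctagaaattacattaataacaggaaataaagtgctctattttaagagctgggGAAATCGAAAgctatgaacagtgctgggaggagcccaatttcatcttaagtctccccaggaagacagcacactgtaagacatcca
Ifi205: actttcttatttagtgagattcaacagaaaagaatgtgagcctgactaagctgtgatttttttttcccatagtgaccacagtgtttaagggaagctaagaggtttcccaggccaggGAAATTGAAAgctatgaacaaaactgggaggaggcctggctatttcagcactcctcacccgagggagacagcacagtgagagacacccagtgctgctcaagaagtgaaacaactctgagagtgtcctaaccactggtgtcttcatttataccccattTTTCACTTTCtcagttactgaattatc
Ifit3: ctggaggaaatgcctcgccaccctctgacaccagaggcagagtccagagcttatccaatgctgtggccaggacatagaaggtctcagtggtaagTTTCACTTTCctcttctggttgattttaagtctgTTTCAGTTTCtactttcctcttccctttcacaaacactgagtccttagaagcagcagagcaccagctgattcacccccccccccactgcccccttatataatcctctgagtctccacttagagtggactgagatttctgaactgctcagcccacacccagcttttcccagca
The Ifi202b window held no ISRE core and 1 GAS core, from -148 to -140 with the first transcribed base as 0. The Ifi203 window held 1 ISRE core, from -35 to -26, and another annotated start of Ifi203 had none. The windows of Ifi205 and Ifit3 held 2 ISRE cores each. Among all 32851 windows, 3.44% held an ISRE core and 8.30% a GAS core. Of the 12 HIN-200 genes with a window 9 had an ISRE core in at least 1, and of the 37 interferon-stimulated genes with a window 14 did. A match is a match of letters and not a bound site.

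Ifi202b was measured in 310 animals, and none of its values reached those limits. In 68 animals the log10 ratio ran from -1.27 over a median of -1.003 to -0.690. In the other 242 it ran from -0.355 over a median of -0.00298 to 0.548. The animals thus fell into a low and a high group with no value between -0.690 and -0.355, and the groups are called low and high animals below. The low animals stood at 0.0992 of the pool by the median, against 0.993 for the high animals, a 10.01-fold higher median in the high animals.

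The edges of the groups were 2.16-fold apart. A single animal set that distance. It was the highest of the low group at -0.690, while the next lay at -0.831, 2.99-fold below the lowest high animal. The low animals made up 21.9% of those measured (95% Wilson interval 17.7 to 26.9, covering sampling of animals only). In an F2 intercross 25% of animals are homozygous for a given parental allele. No genotype was used, so whether the low animals share an allele was not tested. The share was 22.6% (35 animals) among F2 numbers up to the median of 186 and 21.3% (33 animals) above it. A mixture of 2 normals placed every animal in the same group as the gap did.

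**Figure D1:**
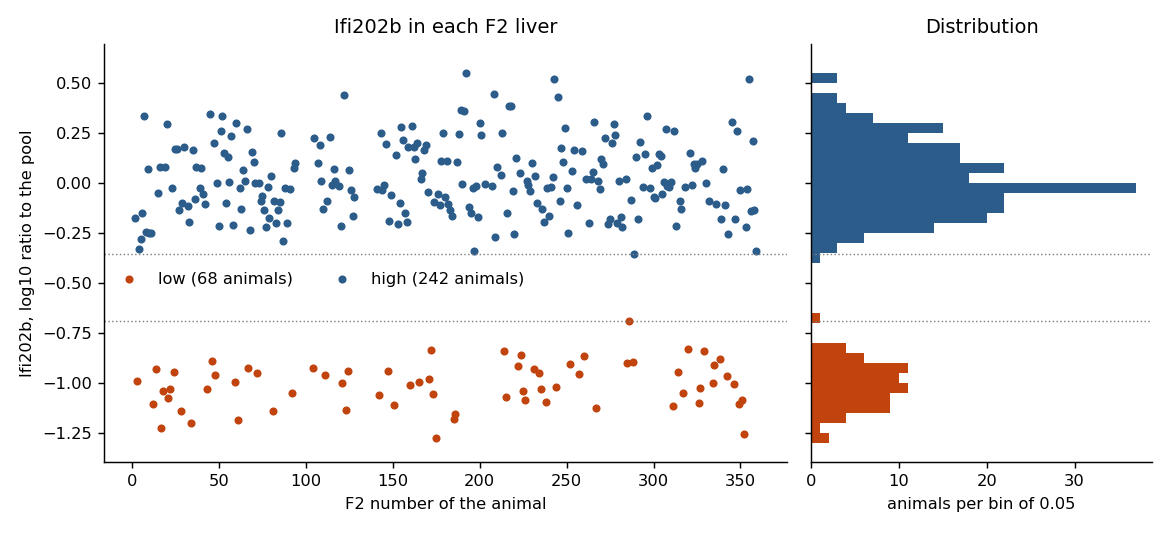
Ifi202b log10 ratio to the pool for each of 310 F2 livers against F2 number (left, 1 point per animal) and as a histogram (right), low animals in orange and high animals in blue. Dotted lines mark the highest low animal at -0.690 and the lowest high animal at -0.355, and low animals occur along the whole range of F2 numbers.

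Such a gap was rare on these arrays. When the widest gap that left at least 5% of animals on each side was taken for each of 11387 measured genes, the median gene had 1.02-fold, and 9 genes had at least 2-fold, among which Ifi202b ranked 8. Its SD over all animals, 0.460, was 6.90 times that of the median gene and ranked 38. Within the groups the spread was smaller. The SD was 0.113 in the low animals and 0.181 in the high animals, which is 1.70 and 2.72 times the median SD of all genes. From the 5th to the 95th percentile the low animals spanned 2.26-fold and the high animals 3.81-fold.

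The question put to the high group was which transcripts followed Ifi202b from animal to animal once the low animals were set aside. Each gene was fitted on the Ifi202b log ratio with limma over the 242 high animals, and a gene is said to rise or fall with Ifi202b where its Benjamini-Hochberg adjusted p over 11386 genes was under 0.05. In total 1511 genes rose (13.3% of those tested) and 1524 fell (13.4%), 26.7% in either direction. The median r of all genes was -0.0148. In the 68 low animals the same fit called 313 rising (2.75%) and 235 falling genes (2.06%), 4.81% in either direction, with a median r of 0.00203. The slopes of the groups were then compared in 1 model. The slope in low minus that in high animals was above 0 for 4 genes (0.0351%) and below 0 for 1 (0.00878%), none of them in the lists described here. Against 3035 genes called in the high animals, a gene called in high and not in low animals is therefore not shown to differ between them.

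The nearest relatives moved with Ifi202b and lacked its gap. Ifi203 ran from -0.379 over -0.00327 to 0.274, Ifi204 from -0.443 over -0.0322 to 0.285, and Ifi205 from -0.259 over 0.00695 to 0.313 (311, 311 and 309 animals). Their widest gaps were 1.03, 1.03 and 1.02-fold, so no separate low group was seen in any of them. Ifi203, a nuclear member of the family, rose with Ifi202b at r = 0.512 in low animals (adjusted p = 0.00567) and r = 0.629 in high animals (adjusted p = 6.85e-25; rho = 0.610). Permutation gave p = 1e-05 for r of Ifi203 in each group, the smallest that 100000 resamples can give.

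Ifi204 had r = 0.354 in low animals (adjusted p = 0.0518) and rose at r = 0.467 in high animals (adjusted p = 1.27e-12). For Ifi205 r was 0.320 in low animals (adjusted p = 0.0863), and it rose at 0.337 in high animals (adjusted p = 2.15e-06). Ifi206, which the platform lists as a predicted gene, had r = 0.161 in low and -0.0396 in high animals and passed in neither (adjusted p = 0.446 and 0.701). The other 10 family members on the list were not measured. Further probes did not all follow suit: another Ifi203 probe had r = 0.100 in low and 0.120 in high animals, and another Ifi204 probe had 0.475 and 0.429. A further Ifi204 probe, missing on 41 arrays and so not kept, had r = 0.134 in low and -0.0731 in high animals.

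Interferon-stimulated genes rose with Ifi202b among the high animals. Of 40 measured genes of the list 31 rose, 1 fell and 8 did not pass, with a median r of 0.283 against -0.0148 for all genes. Of all genes 13.3% rose and 13.4% fell. Trim30a, a ubiquitin ligase that limits inflammatory signalling, led with r = 0.595 (adjusted p = 1.69e-21; rho = 0.591; permutation p = 1e-05 for each). Its slope was 0.380 ± 0.0333 (SE), in log10 units per log10 unit of Ifi202b. Ifit2, which binds viral RNA complexes, rose at r = 0.586 with a slope of 0.462 ± 0.0411 (adjusted p = 4.25e-21), and r stayed at 0.568 without the 2 animals farthest from the median. Ifit3 of the same family rose at r = 0.493 with a slope of 0.360 ± 0.0408 (adjusted p = 3.08e-14).

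The nuclear body protein Sp100 rose at r = 0.493 and Oas2, which makes the activator of RNase L, at r = 0.480 (adjusted p = 4.05e-14 and 2.21e-13). Calls were uneven along the F2 numbers, on this list and over all genes. Of all genes 420 rose among high animals with F2 numbers up to the median and 1171 among those above it. Among the 120 high animals with numbers up to the median 16 genes of the list rose, and among the 122 above it 31 did, with median r of 0.257 and 0.349. The direction of the median was the same in each part.

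Some members of the list went otherwise. Xaf1, an interferon-induced promoter of apoptosis, had r = -0.320 in low animals and did not pass there (adjusted p = 0.0907). In high animals it fell as Ifi202b rose, at r = -0.229 (adjusted p = 0.00277). With the first 5 principal components as covariates its r was 0.0932. Mx1, an antiviral GTPase that many laboratory strains carry in a defective form, had r = -0.317 in low and -0.104 in high animals, passing in neither (adjusted p = 0.0849 and 0.237). Mx1 itself ran from -0.767 over 0.0332 to 0.359, with a 4.08-fold span from the 5th to the 95th percentile.

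In the low animals 8 of the 40 genes rose and 0 fell, against 2.75% and 2.06% of all genes. Ifit3 had r = 0.495 there (adjusted p = 0.00637), Oas2 0.390 (0.0296), Sp100 0.368 (0.0435), Ifit2 0.364 (0.0443) and Trim30a 0.294 (0.124). Set beside the list as if it were a member, Ifi202b had a mean r with the 40 genes of 0.179 in low animals and 0.280 in high animals. The members' own mean r with the rest of the list had medians of 0.269 and 0.3003. A higher mean r than that of Ifi202b was held by 28 of the 40 genes in the low animals and by 21 in the high animals, where the highest was Ifit3 at 0.481. For scale, Ifit3 and Irf7, the interferon regulatory factor, had r = 0.799 with each other in the high animals.

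**Figure D2:**
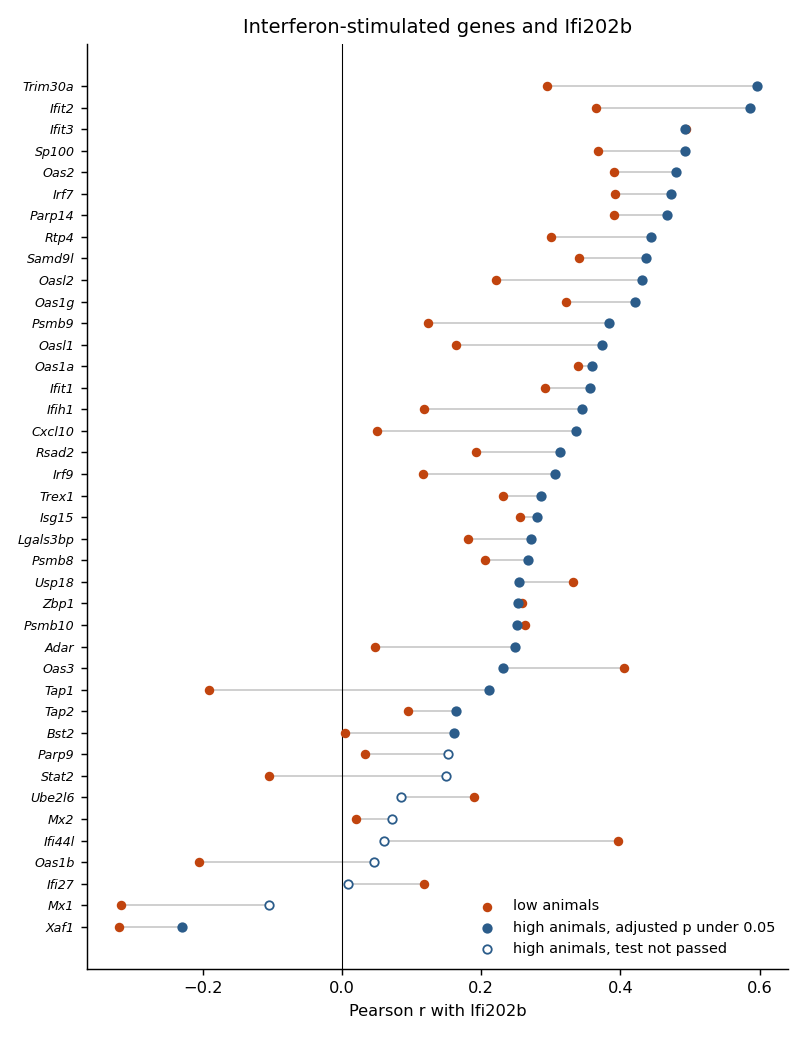
Pearson r with Ifi202b for each of 40 interferon-stimulated genes, in low animals (orange, n = 68) and high animals (blue, n = 242; filled where the adjusted p was under 0.05), ordered by r in high animals. Most genes lie right of 0 in each group, and Xaf1 and Mx1 lie left of it in each.

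Of 16 measured genes induced mainly by interferon gamma 14 rose in the high animals, 0 fell and 2 did not pass, with a median r of 0.304. Of all genes 13.3% rose and 13.4% fell there. Irf8, a factor that macrophages need to mature, led with r = 0.496, followed by the guanylate binding protein Gbp3 at 0.464. The GTPases Tgtp1 and Irgm1, which attack vacuoles of intracellular microbes, rose at r = 0.419 and 0.410, and Gbp2 rose at 0.368, all with adjusted p of 1.36e-07 or lower. Iigp1, a GTPase of the same kind, had r = -0.0709 (adjusted p = 0.457), but its most variable probe rose at r = 0.264 (adjusted p = 0.000382). Ido1, the enzyme that starts tryptophan breakdown, had r = 0.0524 (adjusted p = 0.597). In the low animals the median r of the list was 0.126, and 1 of the 16 rose, against 2.75% of all genes.

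The receptors and sensors upstream were mixed. Of 16 measured genes 7 rose, 3 fell and 6 did not pass in the high animals, with a median r of 0.0753. Of all genes 13.3% rose and 13.4% fell there. Tlr7, the endosomal sensor of single-stranded RNA, rose at r = 0.515 (adjusted p = 1.37e-15), and the interferon gamma receptor chain Ifngr1 at 0.382. Tlr3, which senses double-stranded RNA, rose at 0.372, Ifng at 0.345 and the type I receptor chain Ifnar2 at 0.332. Irf3, which switches on interferon beta, fell at r = -0.309 (adjusted p = 2.25e-05). Myd88, the adaptor of most Toll-like receptors, fell at r = -0.175 (adjusted p = 0.0285), a call that was lost with each array centred on its median (adjusted p = 0.0576) and with Eif2s3y as a covariate (0.273).

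Over all genes, Ptprc, the pan-leukocyte phosphatase CD45, had the highest r with Ifi202b in the high animals, r = 0.688 (adjusted p = 1.43e-31; rho = 0.674; permutation p = 1e-05 for each) and a slope of 0.488 ± 0.0331. Cd48, a leukocyte adhesion receptor, followed at r = 0.680. The secreted factor Metrnl had 0.658, the myeloid transcript Evi2a 0.625 and the kinase Stk17b 0.620. Casp1, the protease of inflammasomes, rose at r = 0.616, the T cell and platelet adaptor Lcp2 at 0.614, the lymphocyte receptor Slamf6 at 0.614 and Plek, a substrate of protein kinase C in blood cells, at 0.611. With Ifi203 these are the 10 highest of 11386 genes, and 5 of them (Ptprc, Cd48, Ifi203, Stk17b and Slamf6) lie on chromosome 1, as Ifi202b does. Without the 2 farthest animals r was 0.666 for Ptprc and 0.663 for Cd48.

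In the low animals Ptprc rose with Ifi202b at r = 0.388 (adjusted p = 0.0313), Casp1 at 0.421 (0.0201), Evi2a at 0.468 (0.00924) and Metrnl at 0.422 (0.0201). Cd48 (0.326), Lcp2 (0.337), Stk17b (0.312) and Plek (0.296) did not pass there, with adjusted p of 0.0751, 0.0682, 0.0930 and 0.111. Slamf6 had the lowest r of the 10 in the low animals, 0.140 (adjusted p = 0.517).

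**Figure D3:**
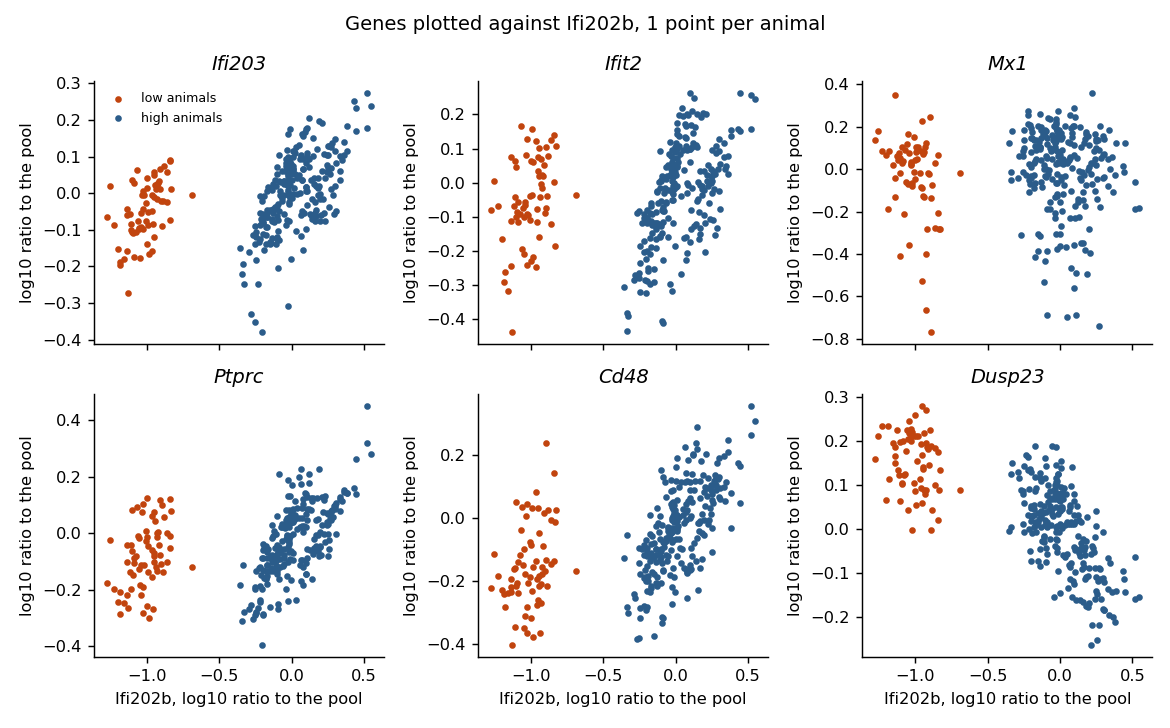
Log10 ratios of Ifi203, Ifit2, Mx1, Ptprc, Cd48 and Dusp23 against that of Ifi202b, 1 point per animal, low animals in orange and high animals in blue. Within the high animals Ifi203, Ifit2, Ptprc and Cd48 rise along Ifi202b and Dusp23 falls, while Mx1 (r = -0.104) shows little trend.

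Markers of macrophages and Kupffer cells, the resident macrophages of liver, moved with Ifi202b as a list. Of 20 measured 19 rose in the high animals and 0 fell, against 13.3% and 13.4% of all genes. Their median r of 0.437 was the highest of the 13 lists. Fcer1g, a signalling chain of Fc receptors, rose at r = 0.601, the lysosomal protease Ctss at 0.597, the scavenger receptor Msr1 at 0.550, the macrophage receptor Adgre1 (F4/80) at 0.542 and Cd5l, a secreted macrophage protein, at 0.535. Fcer1g lies on chromosome 1, as Ifi202b does, within 90 measured genes of it in gene order. Ctss, Msr1, Adgre1 and Cd5l lie on other chromosomes. Timd4, a receptor for dying cells on resident macrophages, had the lowest r of the 19, 0.231, and passed in neither part of the F2 numbers on its own. Cd163, the haemoglobin scavenger receptor, did not pass at r = -0.124 (adjusted p = 0.140; 0.0445 by ranks). In the low animals 9 of the 20 rose and 0 fell, against 2.75% and 2.06% of all genes, with a median r of 0.344. There Cd5l had r = 0.492 (adjusted p = 0.00637) and Ctss 0.437 (0.0146), whereas Adgre1 had 0.263 (0.165) and Msr1 0.202 (0.316).

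Of 6 MHC class II genes, which antigen-presenting cells use, 5 rose in the high animals, with H2-DMa at r = 0.451 and H2-DMb2 at 0.440. Of all genes 13.3% rose and 13.4% fell there. H2-Ea had r = -0.0300 (adjusted p = 0.780). Of 12 T and NK cell genes 7 rose, among them Cd2 at 0.403 and the T cell receptor component Cd3g at 0.391, and 1 fell, Cd3e, at r = -0.238 (0.129 with the first 5 principal components as covariates). Of 8 B and plasma cell genes 3 rose, led by the B cell adaptor Blnk at 0.287, and 2 fell, among them Xbp1, a factor of plasma cells that hepatocytes also use, at r = -0.275. The medians of these lists were 0.390, 0.246 and -0.0679.

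Lists of other tissues and cells were counted in the high animals as well, where 13.3% of all genes rose and 13.4% fell. For endothelium 1 of 9 genes rose (median r 0.0470), for stellate cells and matrix 4 of 10 (0.103), and for adipose tissue 1 of 5 rose and 1 fell (-0.0815). Rgs5, the gene of highest r in the stellate list (0.440), lies on chromosome 1, as Ifi202b does. Of 5 pancreas and 8 skeletal muscle genes 0 rose and 0 fell, with medians of 0.0138 and -0.0324.

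**Figure D4:**
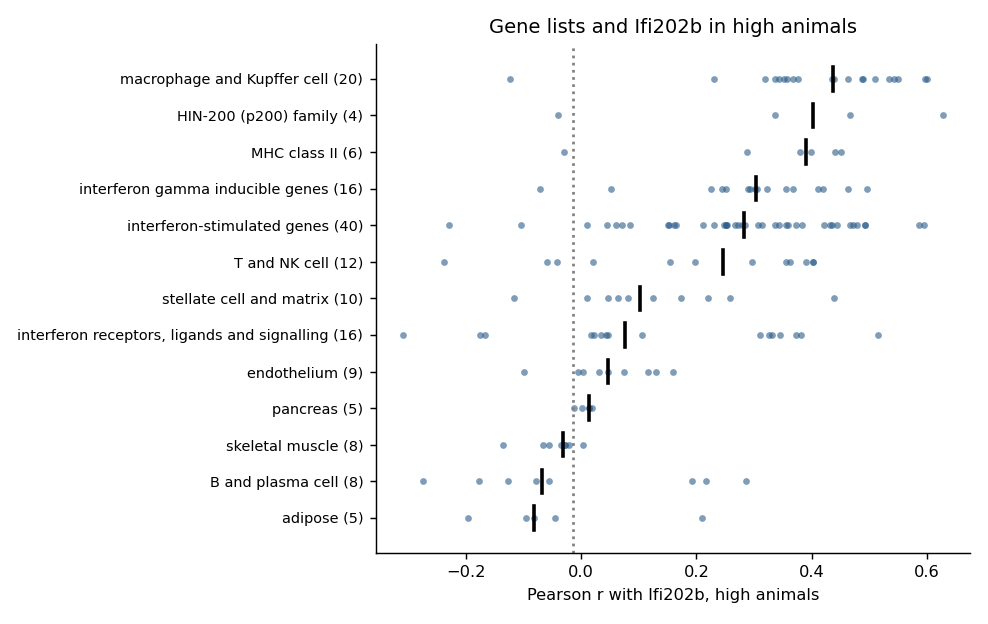
Pearson r with Ifi202b in the 242 high animals for the measured genes of 13 lists (points), with the median of each list (black bar), the number of genes in brackets and the median of all 11386 genes (dotted line). Macrophage genes have the highest median, 0.437, and the pancreas and muscle lists lie near the dotted line.

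Interferon and leukocyte genes also moved with each other. In the high animals Ptprc had r = 0.642 with Ifit3, 0.821 with Ctss and 0.822 with Cd48. When the macrophage list's score (the mean of its standardised values) was added to the fit, 8 of the 40 interferon-stimulated genes rose with Ifi202b, and the median r was 0.0923. Of all genes 841 rose in that fit, against 1511 without the score. With the log ratio of Ptprc added instead, 1 rose and the median was 0.0677. With the interferon-stimulated list's score added, 16 of the 20 macrophage genes still rose, with a median r of 0.229. Calls over all genes were not counted with Ptprc or the interferon-stimulated score added, so those list counts have no background share. What part differing numbers of leukocytes have in the relation of Ifi202b to interferon-stimulated genes was not tested. Eif2s3y, a gene of the Y chromosome, had the widest gap of all measured genes, 4.53-fold, with 156 animals below it and 155 above. In the high animals it had r = -0.208 with Ifi202b (adjusted p = 0.00682), an r taken across those separate levels. With Eif2s3y as a covariate 28 of the 40 genes rose. The list scores and Ptprc as covariates were chosen after the data were seen, and Ptprc because its r was the highest.

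Of 616 measured genes on chromosome 1, 75 fell and 113 rose with Ifi202b in the high animals. Of all genes 13.4% fell and 13.3% rose. In either direction 30.5% passed on chromosome 1, against 26.4% of genes elsewhere or without a known place. The 5 lowest r in the high animals belonged to Dusp23 (-0.657), Dcaf8 (-0.603), Nit1 (-0.554), Kmo (-0.546) and Ppox (-0.476), all on chromosome 1. Dusp23 is a small phosphatase, Dcaf8 a receptor subunit of a ubiquitin ligase, Nit1 an amidase, Kmo an enzyme of the kynurenine pathway and Ppox an enzyme of haem synthesis. Their adjusted p ran from 5.00e-27 for Dusp23 to 4.54e-13 for Ppox, with permutation p = 1e-05 for each r.

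Likeness over all 310 animals was ranked by the absolute Spearman rho, which includes the step between the groups and is a description only. All 10 genes most like Ifi202b were on chromosome 1, as were 21 of the first 25. They were Dusp23 (rho = -0.753), the transcription factor Usf1 (0.745), Dcaf8 (-0.745), Ppox (-0.717), Slamf6 (0.716), Apcs, the serum amyloid P component (0.697), Nit1 (-0.678), Rgs5, a pericyte regulator of G protein signalling (0.658), Cd48 (0.652) and Rabgap1l, a GTPase activator (-0.650). An absolute rho of at least 0.5 was reached by 23 of 616 genes on chromosome 1 and by 15 of 10770 genes elsewhere or without a known place. All 10 lay within 90 measured genes of Ifi202b in gene order and on the same side, where 540 measured genes of the chromosome lie; 76 lie on the other.

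Within the high animals these 10 genes passed, Usf1 with r = 0.535, Apcs with 0.389, Rgs5 with 0.440 and Rabgap1l with -0.436. The high animals are 242 of the 310 over which the 10 genes were picked, so this is no separate check. Within the low animals 0 of the 10 passed, against 4.81% of all genes. There r was -0.206 for Dusp23 (adjusted p = 0.313), -0.0888 for Dcaf8, 0.251 for Usf1 and 0.108 for Apcs. In simulated data a planted r of 0.3 was called for 14% of genes with 68 animals and 88% with 242. A planted r of 0.5 was called for 82% and 100%. In that simulation 11186 of 11386 genes had no planted r, so these rates need not hold for the data. Some nearer genes were unlike it. Ackr1 and Cadm3, 5 and 4 measured genes away, had rho of -0.0696 and 0.108, and the olfactory receptor gene Olfr433, 2 away on the other side, had 0.00897. Other near genes were more like it. Ifi203, next to it on the side of Cadm3, had rho of 0.565, and Kmo, 6 away on the side of Olfr433, had -0.605.

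Dusp23 was set beside 1 interferon-stimulated gene and 1 leukocyte gene. In the high animals it had r = -0.0626 with Ifit3 and -0.293 with Ptprc. When the log ratio of Dusp23 was added to the fit, a choice made after the data were seen, the partial r of Ifi202b was 0.736 with Ifit2 (0.586 without Dusp23), 0.599 with Ifit3 (0.493) and 0.759 with Ifi203 (0.629). It was 0.696 with Ptprc (0.688) and 0.684 with Ctss (0.597). A partial r is fixed by the pairwise r values, and Dusp23 had the lowest r of all genes with Ifi202b (-0.657). The partial values are therefore no separate support for a relation to Ifi202b. With Dusp23 in the fit the median r was 0.331 for the interferon-stimulated list, of which 28 of 40 rose. For the macrophage list it was 0.561, and 19 of 20 rose. Calls over all genes were not counted in that fit, so it is not known whether the change was particular to these lists. By eye, the high animals in the plot of Ifit2 against Ifi202b lie along 2 slanting bands, a pattern that was seen in these data and was not tested.

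**Figure D5:**
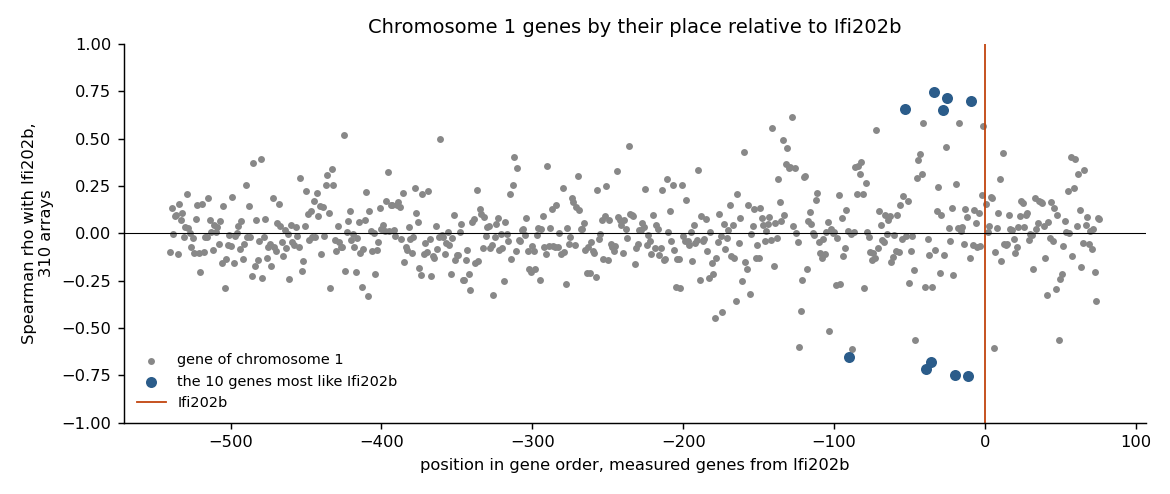
Spearman rho with Ifi202b over 310 animals for 616 measured genes of chromosome 1, placed by gene order relative to Ifi202b (orange line at 0). The 10 genes most like Ifi202b (blue) lie left of the line within 90 genes of it, with rho beyond 0.65 in either direction, while many genes between them lie near 0.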

How the data were processed

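Per the labels, liver RNA of 311 F2 mice was measured on 2-colour arrays, animal in Cy3 and pool in Cy5. The deposited values are log10 ratios that the authors had already normalized, by steps not given in the sources used here. No label names a direction. Base and sign came from the values: the mean linear ratio of Ifi202b was 0.922 as animal over pool and 3.13 turned round, and 158 of the 200 most variable genes were nearer 1 as animal over pool. The slope of gene mean on variance was -1.05, against -1.15 for log10. Of 48205 array pairs 127 had r under -0.3. Precision is set by the number of arrays, as there are no counts.

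Probes were named from the platform annotation, with symbols updated through RefSeq (12653 of 13645 by Entrez ID). Probes on at least 95% of arrays were kept, 1 per gene (fewest missing values). The low group lies below the widest gap with at least 5% of animals on each side. Fits used limma 3.58.1 (R 4.3.3). Permutation tests were two-sided over 142 relations (100000 resamples, seed 2814) in Python 3.11.15. The fit was tested on simulated data. Animals have no labelled replicates, so p-values measure spread between single arrays.

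Members and lists were chosen with earlier results of these data known. Named genes are the measured HIN-200 genes, in each list the 5 highest and 2 lowest r, over all genes the 10 highest and 5 lowest, the 10 most alike by rho, the 5 nearest on each side, and Eif2s3y. Not all of these are printed. Irf7 and the genes with differing slopes were chosen after their values were seen. Alternatives are given in the closing section.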

Additional observations from a re-analysis of the deposited data

Results flagged for a closer look

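For 5 genes the slope on Ifi202b differed between low and high animals at an adjusted p under 0.05 in the model with a slope for each group (1300 of 11386 genes had an unadjusted p under 0.05). The slope in low minus that in high animals was 0.206 ± 0.0441 (SE) for Npm2 (adjusted p = 0.0177), a histone chaperone of the egg. It was -0.293 ± 0.0606 for the olfactory receptor gene Olfr57 (0.0177), 0.195 ± 0.0417 for the testis gene Tcp11 (0.0177), 0.351 ± 0.0778 for Podn, a matrix proteoglycan (0.0252), and 0.377 ± 0.0844 for the RNA exonuclease Xrn2 (0.0258). Npm2 rose with Ifi202b in low animals (r = 0.423) and fell in high animals (r = -0.239). The other 4 passed only in the low animals, with r of -0.518 for Olfr57, 0.519 for Tcp11, 0.462 for Podn and 0.494 for Xrn2, against 0.0510, -0.128, -0.119 and -0.0643 in high animals. No pattern was weighed further. Groups of over 10 animals were not searched for outlying arrays.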

How the results depend on the processing

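Under the alternatives run, among them the mixture, array centring and either part of the F2 numbers, the share of low animals (21.3 to 22.6%) kept within its interval, and the gap ran from 2.13 to 3.22-fold. Counts of rising and falling genes in the high animals (1511 and 1524) were 420 and 144 for F2 numbers up to the median, 1171 and 916 above it, 756 and 478 with the first 5 principal components as covariates, and 689 and 410 without the lowest and highest 5% of high animals. They were 1000 and 995 with probes on every array, where 6560 genes were tested, and 841 and 836 with the macrophage score. Of the interferon-stimulated genes 31 rose, but 16 in the lower F2 numbers, 17 of 23 with probes on every array, 8 with the macrophage score and 1 with Ptprc. Their median r of 0.283 was 0.349 in the higher F2 numbers, 0.208 without the extreme 5%, 0.0923 with the macrophage score and 0.0677 with Ptprc. The median of macrophage genes, 0.437, was 0.229 with the interferon score and 0.561 with Dusp23. The cause was not tested. Centring each array gave 1651 rising and 1322 falling genes.

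Of the 61 genes followed under each alternative, 61 kept their call and sign without the 2 farthest animals and 52 with 5 components. With 5 components the sign turned for Xaf1 (0.0932), Cd3e (0.129), Ifi206 (0.0384), Iigp1 (0.0551), Ackr1 (0.102) and Cadm3 (-0.136). Other turns were of genes that had not passed: Ifi206 (0.0162), Ackr1 (0.00881) and Cadm3 (-0.0517) in the lower F2 numbers, Olfr433 in the higher (-0.0717), and H2-Ea (0.0183) and Ackr1 (0.00651) by ranks. With Eif2s3y as a covariate Ido1 was -0.0261, Cadm3 -0.0180 and Olfr433 -0.00918. Ackr1 was 0.0277 without the 10 arrays of largest SD and 0.0197 without the extreme 5%, and Iigp1 0.264 by its most variable probe. Calls lost in the lower F2 numbers included Xaf1, Irf3, Myd88, Timd4, Cd3e, Blnk and Xbp1. No paired analysis was possible because the labels give 1 group. Other Ifi202b probes could not be tried, since there is 1.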

Other observations

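Probes without a gene name were compared with Ifi202b as well. Among 9483 such probes measured on at least 95% of arrays, Spearman rho with Ifi202b over 310 animals ran from -0.682 to 0.685, and 24 had an absolute rho of at least 0.5. Within the high animals their r ran from -0.505 to 0.621.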
